A study of Mus musculus with 20 samples.

Results

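The earliest response of visceral fat to a high-fat diet was examined by comparing the 4 day 2 libraries with the 4 chow libraries, 8 of the 20 libraries of the series. All 8 came from epididymal fat, the visceral fat pad beside the testis, of male C57BL6/J mice, an inbred laboratory strain. The chow group stayed on chow and is called day 0, and the day 2 group was switched from chow to the high-fat diet (HFD in the labels) for 2 days. The other 12 libraries, 4 each at 4, 6 and 14 days of the diet, served to estimate the spread and as later points of comparison. The labels call the libraries of a group biological replicates, and do not give the mice's ages, the diets' compositions or how many mice went into a library.

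White adipocytes take up glucose through GLUT4, a transporter that insulin brings to the cell surface in vesicles. They take up fatty acids and esterify them into the triglyceride of the lipid droplet, and lipolysis releases them again. Fat surplus makes the depot expand by enlarging its adipocytes and by recruiting progenitors from the stroma. The outer face of the epididymal pad is covered by mesothelium, a sheet of keratin-bearing cells, and the pad lies against the epididymal duct.

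Library totals were 16667929, 8279454, 38832429 and 27553955 counts for chow replicates 1 to 4 and 1916829, 19943465, 26798901 and 8463161 counts for day 2 replicates 1 to 4. A pair of libraries stood apart. Chow replicate 4 had high levels of epithelial genes, with a summed level of 14 epididymal duct genes of 951 CPM (counts scaled to a common library total). The 3 remaining chow libraries had 375 to 439 CPM of these genes and the day 2 libraries 326 to 390 CPM. Ciliated cell genes, 14 tested, summed to 362 CPM in that library, to 49.5 to 65.1 CPM in chow replicates 1 to 3 and to 63.2 to 85.6 CPM on day 2. Another 6 of the 30 duct genes were at 0 in all 8 libraries. Day 2 replicate 1 had the smallest total. Both are called the doubted libraries here. Adipocyte identity genes, all 18 of 18 tested, summed to 41782 to 71668 CPM in chow and 46891 to 73446 CPM on day 2. The 41782 CPM was that of chow replicate 4, and the other chow libraries had 55493 to 71668 CPM. Of 12 testis genes, 3 passed the low-count filter, summing to at most 6.71 CPM.

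Of 15254 genes tested, 670 (4.39%) differed on day 2 from chow, that is, were called at an adjusted p under 0.05 in edgeR's quasi-likelihood test, adjusted by Benjamini-Hochberg. Every adjusted p below has this source. They comprised 371 (2.43%) that were higher and 299 (1.96%) that were lower on day 2. With totals scaled by library size alone the split was 228 higher and 593 lower, and that scaling moved the median change of all genes from -0.03 to -0.14 on the log2 scale. The called rises were small, with a median log2 change of 0.59, and 71 of them exceeded 2-fold. The called falls had a median of -1.04, and 162 exceeded 2-fold. The 4 and 4 libraries did not overlap for 535 of the 670 genes, against 12.7% of all genes tested. All 670 kept their sign in every alternative setting that tested them. The settings reuse the same counts and are not independent, and the stricter filter tested only 12548 genes.

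How many genes were called depended on single libraries, as the bar plot of calls with each library left out shows. When chow replicate 2, 3 or 4 was left out, the number was 92, 408 or 98. When day 2 replicate 1, 3 or 4 was left out, it was 71, 323 or 43. Leaving out chow replicate 1 or day 2 replicate 2 raised it to 1549 and 1779. These were also the libraries that lay nearest to the other group: day 2 replicate 2 was the lowest day 2 library in 258 of the 371 rises, and chow replicate 1 the highest chow library in 281 of them. Without both chow replicate 4 and day 2 replicate 1, 8 genes were called. The genes described first are the 38 (0.249% of those tested) that were called with all libraries and again in each of the 8 fits that left out 1 of the 8 libraries. They comprised 28 rises and 10 falls, and the 4 and 4 libraries did not overlap for any of them. For a called gene outside the 38, the adjusted p is followed by its values without chow replicate 4 and without day 2 replicate 1, in that order.

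**Figure D1:**
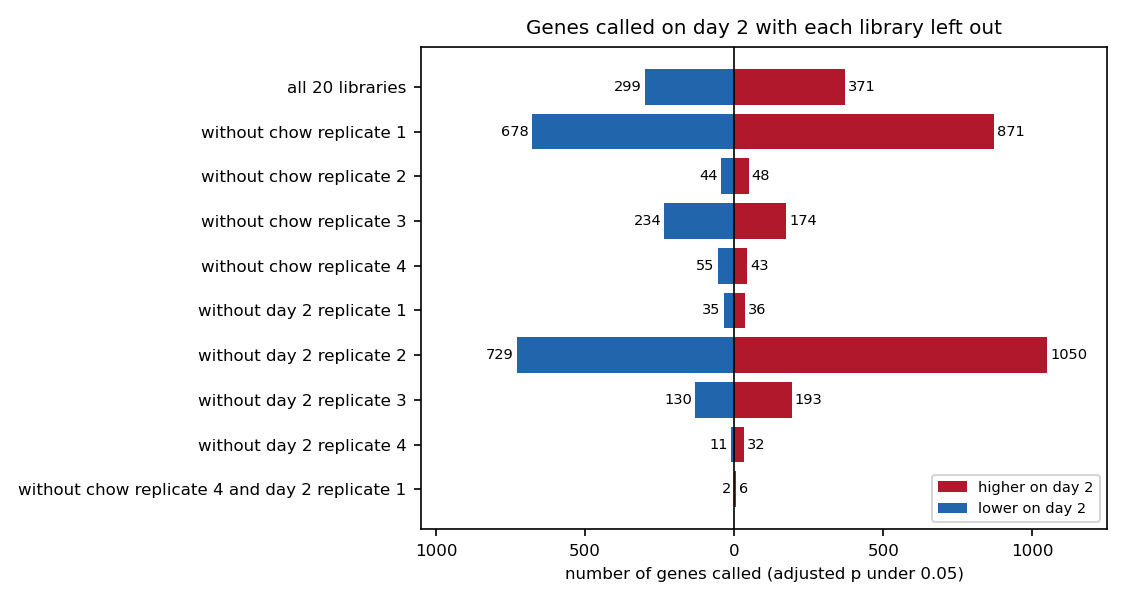
Number of genes called higher (red, to the right) and lower (blue, to the left) on day 2 with all 20 libraries, with each of the 8 chow and day 2 libraries left out, and with chow replicate 4 and day 2 replicate 1 both left out. The total ranges from 43 without day 2 replicate 4 to 1779 without day 2 replicate 2, and is 8 without the pair.

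**Figure D2:**
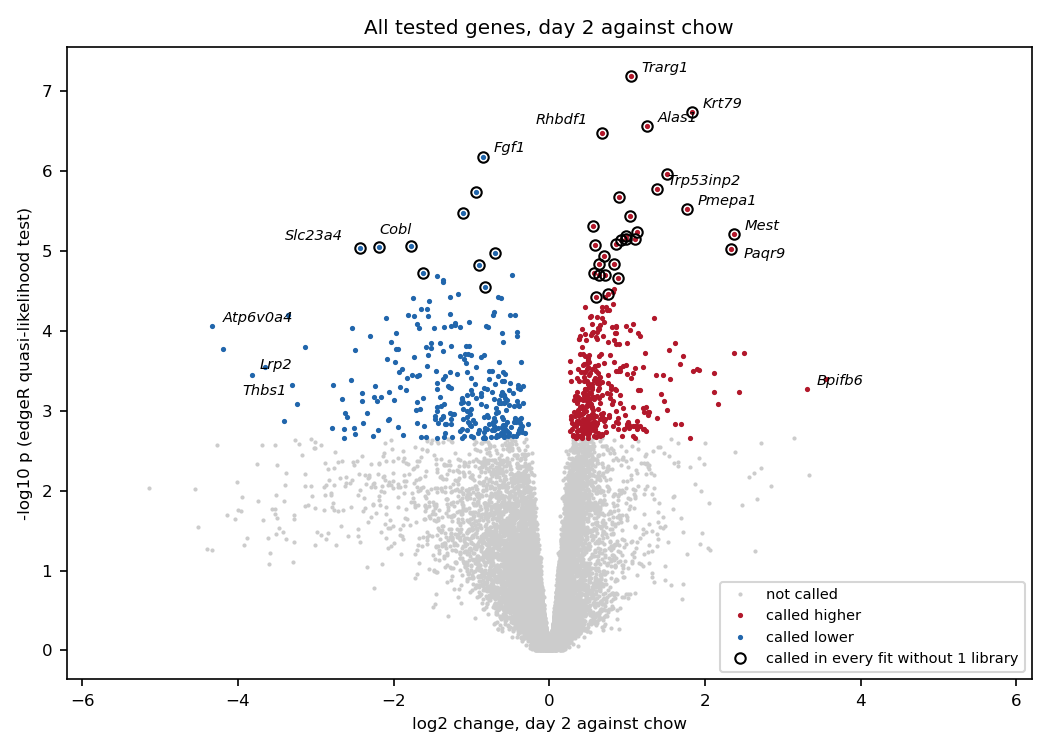
Each point is 1 of 15254 genes, with the log2 change on day 2 against chow on the horizontal axis and -log10 of the unadjusted p on the vertical axis. Genes called higher are red, genes called lower are blue, and black circles mark the 38 genes called in every fit without 1 library; the largest falls, such as Atp6v0a4, Lrp2 and Thbs1, lie outside those circles.

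The smallest p of the comparison belonged to Trarg1, which encodes an adipocyte protein that travels with GLUT4 in its storage vesicles. Its level was 372, 341, 359 and 278 CPM in chow and 758, 587, 667 and 782 CPM on day 2, in the order of replicates 1 to 4, as in all lists of values here. Every day 2 library lay above every chow library, and the level was 2.07-fold higher on day 2 (log2 change 1.05 ± 0.12, adjusted p = 0.00097; values after ± are standard errors of log2 changes). It was among the 8 genes still called without both doubted libraries, with an adjusted p of 0.037. In whole tissue, a change in the number of cells of a type cannot be told apart from a change in RNA per cell, here and for every gene below.

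Of 18 genes of the GLUT4 vesicle and glucose uptake, 4 were called higher (22.2%, against 2.43% of all genes), Trarg1 among them, and none lower. The median change was 0.14, against -0.03 over all genes, and 6 of the 18 had a negative change. Myo1c, a myosin that moves GLUT4 vesicles at the cell surface, had 506, 463, 443 and 396 CPM in chow and 743, 602, 572 and 693 CPM on day 2 (log2 change 0.53 ± 0.10, adjusted p = 0.014, without each doubted library 0.054 and 0.054). Rhoq, a small GTPase of insulin-stimulated glucose uptake, had 172, 149, 143 and 140.2 CPM in chow and 216, 179.8, 196 and 222 CPM on day 2 (log2 change 0.43 ± 0.10, adjusted p = 0.03, without each doubted library 0.098 and 0.089). For both, and for the vesicle carrier protein Scamp3 (log2 change 0.44 ± 0.11, adjusted p = 0.038, without each doubted library 0.12 and 0.12), the groups did not overlap. When chow replicate 4, day 2 replicate 1 or day 2 replicate 4 was left out, 1 gene of the list was called. Slc2a4, which encodes GLUT4 itself, was at 275, 190.4, 224 and 185 CPM in chow and 252, 254, 241 and 199 CPM on day 2, groups that overlapped (log2 change 0.11 ± 0.17, adjusted p = 0.73).

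In insulin signalling, 2 of 27 genes were called, both higher (7.41%, against 2.43% of all genes). No gene of this list was called without chow replicate 2, chow replicate 4 or day 2 replicates 1, 3 or 4. Akt2, the insulin-responsive kinase of fat and muscle, was at 441, 393, 408 and 302 CPM in chow and 565, 493, 599 and 606 CPM on day 2 (log2 change 0.55 ± 0.13, adjusted p = 0.028, without each doubted library 0.098 and 0.073). The insulin receptor phosphatase Ptpn1 was at 48.4, 47.2, 49.9 and 48.1 CPM in chow and 69.1, 62.9, 60.7 and 58.9 CPM on day 2 (log2 change 0.37 ± 0.09, adjusted p = 0.031, without each doubted library 0.084 and 0.096). The day 2 libraries lay above all chow libraries for both. Prr5, a subunit of the kinase complex mTORC2, was among the 38 and was at 38.4, 27.8, 28.2 and 29.7 CPM in chow and 46.4, 48.9, 45.3 and 53.1 CPM on day 2 (log2 change 0.64 ± 0.11, adjusted p = 0.0075). The insulin receptor gene Insr (log2 change -0.18 ± 0.12, adjusted p = 0.34) and Irs1 (0.04 ± 0.23, adjusted p = 0.95) did not pass the test. The list's median change was 0.10, and -0.01 when scaled by library size alone.

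Trp53inp2, which encodes a protein needed to form autophagosomes, rose 2.61-fold. The libraries held 473, 337, 367 and 422 CPM in chow and 1092, 934, 1109.6 and 1043 CPM on day 2, and every day 2 library was far above the highest chow library (log2 change 1.38 ± 0.20, adjusted p = 0.0035). Without both doubted libraries the adjusted p was 0.046. Of 39 autophagy genes, 2 were called higher (5.13%, against 2.43% of all genes) and 1 lower (2.56%, against 1.96%), shares near those of all genes. The second rise was Map1lc3a, an LC3 protein that coats autophagosomes, at 122, 124, 121 and 96.8 CPM in chow and 147, 195, 175 and 141 CPM on day 2 (log2 change 0.51 ± 0.11, adjusted p = 0.02, without each doubted library 0.076 and 0.046). The fall was the paralog Trp53inp1, at 33.4, 82.9, 34.5 and 49.4 CPM in chow and 21.6, 27.2, 24.9 and 19.1 CPM on day 2 (log2 change -1.08 ± 0.23, adjusted p = 0.02, without each doubted library 0.056 and 0.057). The list as a whole stayed near the other genes, with a median of 0.05, which was -0.05 with library-size scaling. Lysosome genes lay lower, with a median of -0.21 over 31 genes, 24 of them negative and 3 called lower (9.68%, against 1.96% of all genes). Gaa, which encodes the hydrolase of lysosomal glycogen, was among the 3 members called, each lower (log2 change -0.57 ± 0.15, adjusted p = 0.043, without each doubted library 0.098 and 0.12).

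**Figure D3:**
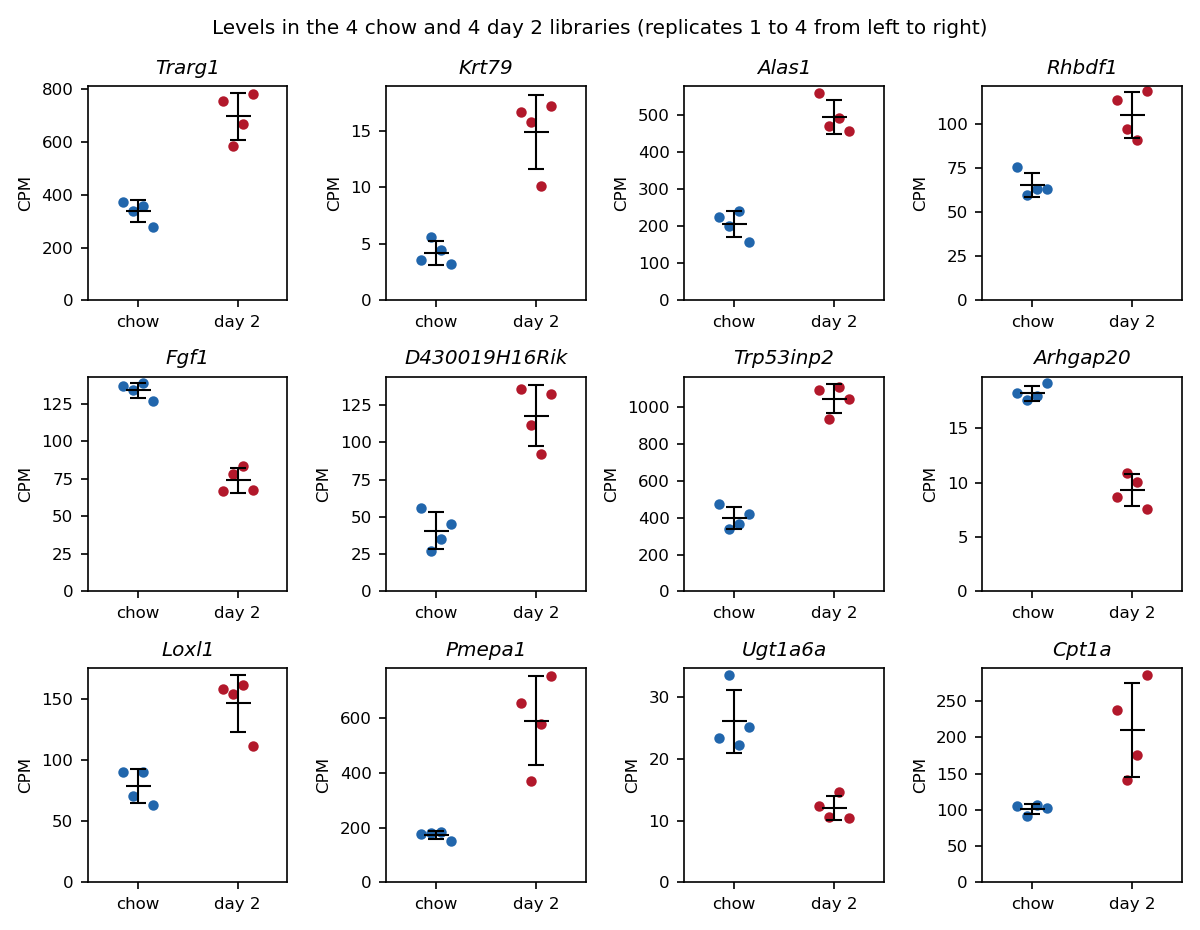
CPM of the 12 genes with the smallest p among the 38, with 1 point per library (replicates 1 to 4 from left to right, chow in blue and day 2 in red) and bars showing the mean ± SD of 4 libraries. In every panel the chow and day 2 points do not overlap, for example 278 to 372 CPM against 587 to 782 CPM for Trarg1.

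In fatty acid oxidation and lipolysis every called gene was higher on day 2. Cpt1a, which encodes the enzyme that admits long-chain fatty acids to mitochondria, was at 106, 91.6, 106 and 103 CPM in chow and 237, 141, 175 and 286 CPM on day 2. Chow libraries lay within a narrow range and day 2 replicate 4 was the highest (log2 change 1.04 ± 0.16, adjusted p = 0.0046). Of 24 fatty acid oxidation genes, 4 were called higher (16.7%, against 2.43% of all genes) and none lower, 21 had a positive change and the median was 0.34. The inner-membrane partner Cpt2 was at 124, 103, 138 and 83.7 CPM in chow and 224, 185, 218 and 181 CPM on day 2 (log2 change 0.84 ± 0.17, adjusted p = 0.015, without each doubted library 0.055 and 0.054). Acads, the short-chain acyl-CoA dehydrogenase (log2 change 0.58 ± 0.13, adjusted p = 0.026, without each doubted library 0.085 and 0.076), and the mitochondrial carrier Ucp3 (log2 change 0.88 ± 0.23, adjusted p = 0.041, without each doubted library 0.12 and 0.11) were the other called members. Only Cpt1a of this list was among the 38. Oxct1, the enzyme that activates ketone bodies for oxidation, was at 258, 283, 301 and 219 CPM in chow and 423, 379.5, 483 and 399 CPM on day 2 (log2 change 0.67 ± 0.14, adjusted p = 0.02, without each doubted library 0.071 and 0.054) and was the called member of 8 ketone body genes.

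Of 25 lipolysis and lipid droplet genes, 6 were called higher (24%, against 2.43% of all genes) and none lower, with a median of 0.30. Plin4, a coat protein of the lipid droplet and the most abundant called gene, was at 3364, 4017, 3808 and 2893 CPM in chow and 5016, 5592, 4725 and 5199 CPM on day 2 (log2 change 0.54 ± 0.14, adjusted p = 0.038, without each doubted library 0.13 and 0.088). Mgll, the lipase that cleaves monoglycerides, was at 1524, 1446, 1447 and 1159 CPM in chow and 2195, 2077, 1892 and 2002 CPM on day 2 (log2 change 0.55 ± 0.14, adjusted p = 0.035, without each doubted library 0.12 and 0.1). The groups did not overlap for either, nor for Plin5, a droplet coat protein that docks at mitochondria, which was at 6.05, 9.997, 10.7 and 11.4 CPM in chow and 15.1, 15.5, 20.5 and 17.4 CPM on day 2 (log2 change 0.86 ± 0.22, adjusted p = 0.037, without each doubted library 0.067 and 0.072). Prkaca, a catalytic subunit of protein kinase A, overlapped between groups because day 2 replicate 2 was at 209 CPM (log2 change 0.62 ± 0.16, adjusted p = 0.036, without each doubted library 0.12 and 0.11). No gene of this list was called when chow replicate 2, chow replicate 4 or any of day 2 replicates 1, 3 and 4 was left out, while 1 was called without chow replicate 3. With chow replicate 1 or day 2 replicate 2 left out, 8 or 9 were called, 1 of the latter lower.

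In fat storage 3 of 25 uptake and triglyceride genes were called, all higher (12%, against 2.43% of all genes), and the list's median was 0.20. Agpat2, an acyltransferase of triglyceride synthesis, was at 953, 375, 608 and 399 CPM in chow and 2089, 790.4, 1684 and 2259.8 CPM on day 2. Day 2 replicate 2 was lower than chow replicate 1, and the other day 2 libraries were the 3 highest (log2 change 1.55 ± 0.36, adjusted p = 0.025, without each doubted library 0.09 and 0.079). The fatty acid transport protein Slc27a4 (log2 change 0.76 ± 0.18, adjusted p = 0.027, without each doubted library 0.086 and 0.081) and the acyl-CoA synthetase Acsl3 (log2 change 0.88 ± 0.24, adjusted p = 0.042, without each doubted library 0.086 and 0.11) were the other called members. Cd36 and Lpl, which bring fatty acids into the adipocyte, did not pass the test, with log2 changes of 0.14 ± 0.15 (adjusted p = 0.59) and 0.49 ± 0.21 (adjusted p = 0.15). Among 20 lipogenic genes the called one was Srebf1, the transcription factor of lipogenic enzymes, at 469, 306, 491 and 317 CPM in chow and 775, 610.0, 759 and 718 CPM on day 2 (log2 change 0.85 ± 0.18, adjusted p = 0.015, without each doubted library 0.056 and 0.054). Its target Fasn, fatty acid synthase, was not called and varied widely: it was at 15407, 6751, 8451 and 7269 CPM in chow and 10673, 2332, 9905 and 11042 CPM on day 2, with day 2 replicate 2 below every other library. Scd1, the stearoyl-CoA desaturase, was at 40788, 33183, 43480.0 and 21826 CPM in chow and 73310.0, 56166, 67693 and 42748 CPM on day 2 and missed the threshold (log2 change 0.78 ± 0.26, adjusted p = 0.08).

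Cholesterol genes formed the list with the largest positive median of the 66 lists, 0.72 over 27 genes, of which 25 were positive, 5 called higher (18.5%, against 2.43% of all genes) and none called lower. The sequence shown here is the promoter of the only member in which the sterol regulatory element was found, the motif through which SREBP factors act. The motif TCACNCCAC was searched on both strands from 250 bases before to 50 after the gene start in RefSeq promoters of GRCm38.p6. It was present in 408 of 32851 promoters, or 1.24%. Of the 28 cholesterol genes listed, 20 had an entry and 1 held a match, Hmgcs1. The 250 bases before its start, chr13:119690101-119690350 on the plus strand, read as follows, with the match in capitals on the same strand, 137 to 129 bases before the start.
Hmgcs1: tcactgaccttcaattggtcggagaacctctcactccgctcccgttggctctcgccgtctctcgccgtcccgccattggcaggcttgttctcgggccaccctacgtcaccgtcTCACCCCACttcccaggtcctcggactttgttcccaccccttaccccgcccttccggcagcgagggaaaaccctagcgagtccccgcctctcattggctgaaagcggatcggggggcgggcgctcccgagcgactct
The match is a description of these letters, and binding or a part in the result was not tested.

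Hmgcs1, the enzyme that makes HMG-CoA for sterol synthesis, was at 369, 228, 177 and 238 CPM in chow and 684, 283, 649 and 846 CPM on day 2. Day 2 replicates 1, 3 and 4 were higher than all chow libraries and day 2 replicate 2 was not (log2 change 1.28 ± 0.33, adjusted p = 0.037, without each doubted library 0.1 and 0.099). Insig1, a retention protein of the sterol-sensing machinery, also had day 2 replicate 2 within the chow range, at 208, 85.8, 120.1 and 77.2 CPM in chow and 568, 128, 660.1 and 781 CPM on day 2 (log2 change 2.12 ± 0.48, adjusted p = 0.024, without each doubted library 0.085 and 0.063). Msmo1, a demethylase of late sterol synthesis, was also called, with 27.05, 16.4, 17.4 and 21.6 CPM in chow and 47.5, 22.8, 40.4 and 45.5 CPM on day 2 (log2 change 0.88 ± 0.24, adjusted p = 0.045, without each doubted library 0.11 and 0.12). Sc5d, a further called member, is a desaturase of the same late steps. In each of the 3 genes given by library, day 2 replicate 2 was the lowest day 2 library and was below the highest chow library, chow replicate 1. No cholesterol gene was called when chow replicate 2 or 4 or day 2 replicate 1 or 4 was left out, and 1 was called when replicate 3 of either group was left out.

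Mitochondrial genes had small positive changes, few of them called. All 72 nuclear-encoded respiratory chain genes tested were positive (median 0.30), and 7 of them (9.72%) were called, against 2.43% of all genes called higher. An example was Cox5b, a subunit of cytochrome oxidase, at 173, 134, 164 and 122 CPM in chow and 201, 182, 242 and 205 CPM on day 2 (log2 change 0.48 ± 0.12, adjusted p = 0.031, without each doubted library 0.11 and 0.073). Another was Atp5g3, of ATP synthase, at 321, 254, 299.6 and 240.2 CPM in chow and 483, 321, 516 and 479 CPM on day 2 (log2 change 0.69 ± 0.18, adjusted p = 0.038, without each doubted library 0.11 and 0.1). The 13 mitochondrially encoded genes had a median of 0.16 and none was called. For example, the level of mt-Cytb, the cytochrome b gene, was 8167, 10372, 10098 and 7902 CPM in chow and 9762, 11619, 11796 and 7463 CPM on day 2 (log2 change 0.15 ± 0.20, adjusted p = 0.67). Of 78 mitochondrial ribosome genes, 73 were positive and 3 called higher (3.85%, near the 2.43% of all genes). In the citrate cycle, Mdh2 (log2 change 0.62 ± 0.15, adjusted p = 0.026, without each doubted library 0.09 and 0.072), Idh3a (log2 change 0.86 ± 0.21, adjusted p = 0.028, without each doubted library 0.092 and 0.089) and the pyruvate carrier Mpc2 (log2 change 0.95 ± 0.24, adjusted p = 0.035, without each doubted library 0.1 and 0.1) were called higher among 28 genes (10.7%, against 2.43% of all genes) with a median of 0.33. The 72 respiratory chain genes had no call without chow replicate 2, chow replicate 4 or day 2 replicates 1, 3 or 4, and 3 without chow replicate 3. With chow replicate 1 or day 2 replicate 2 left out they had 18 or 23.

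Alas1, the first and rate-limiting enzyme of heme synthesis, rose in every day 2 library. It was at 225, 200.3, 241 and 159 CPM in chow and 558, 469, 492 and 455 CPM on day 2, 2.39-fold higher on day 2 (log2 change 1.26 ± 0.16, adjusted p = 0.0012), with an adjusted p of 0.037 without both doubted libraries. Abcb6, a porphyrin transporter, was the other called gene of 16 (log2 change 0.44 ± 0.12, adjusted p = 0.041, without each doubted library 0.11 and 0.11), and the list's median was 0.12. The called share of this list was 12.5%, against 2.43% of all genes called higher. In glycolysis, 1 of 20 genes was called higher (5%, against 2.43% of all genes), Tpi1, triosephosphate isomerase (log2 change 0.91 ± 0.22, adjusted p = 0.03, without each doubted library 0.091 and 0.098), with a median of 0.34. Aldoc, an aldolase isoform, was called lower, but its level was 0.814, 1.39, 0.8099 and 6.89 CPM in chow and 0, 0.255, 0.758 and 0.117 CPM on day 2, so chow replicate 4 held most of the reads, and without that library the change was -1.20 with an adjusted p of 0.27.

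Of the 38, Ehd2, Emp1, Lgals1 and Itga7 encode proteins of the cell surface or matrix. Ehd2, an ATPase at the neck of caveolae, was at 1255, 959, 1068 and 875 CPM in chow and 1853, 1658, 1576 and 1707 CPM on day 2 (log2 change 0.71 ± 0.12, adjusted p = 0.0065). Caveolae are the membrane pits that cover the adipocyte surface, and 2 of 8 caveola genes were called (25%, against 2.43% of all genes called higher), the other being Cav2 at 680.4, 535, 659 and 563 CPM in chow and 979, 801, 789 and 1065 CPM on day 2 (log2 change 0.58 ± 0.16, adjusted p = 0.049, without each doubted library 0.13 and 0.13). Emp1, a tetraspan membrane protein, was at 593, 436, 479.5 and 449 CPM in chow and 1114, 1026, 1176 and 956 CPM on day 2 (log2 change 1.13 ± 0.18, adjusted p = 0.0058). Lgals1, the sugar-binding protein galectin-1, was at 1449, 1045, 1047 and 905 CPM in chow and 2131, 1746, 1818 and 1829 CPM on day 2 (log2 change 0.76 ± 0.14, adjusted p = 0.012). Itga7, a laminin-binding integrin, was at 258, 222, 217 and 185 CPM in chow and 426, 393, 367 and 379 CPM on day 2 (log2 change 0.83 ± 0.14, adjusted p = 0.0075). All 4 genes of the 38 named here lay above the chow range in each day 2 library.

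Loxl1, an enzyme that crosslinks elastic fibres, was at 90.4, 70.7, 89.8 and 63.4 CPM in chow and 158, 154, 162 and 111 CPM on day 2 (log2 change 0.89 ± 0.13, adjusted p = 0.0035). Pmepa1, a transforming growth factor-beta target that restrains that pathway, was at 176, 182, 184 and 149.6 CPM in chow and 656, 369, 579 and 751 CPM on day 2 (log2 change 1.77 ± 0.27, adjusted p = 0.0045), with day 2 replicate 2 the lowest of its group and still above every chow library. Ramp2, a partner of the adrenomedullin receptor in endothelium, was at 40.1, 40.7, 44.3 and 35.9 CPM in chow and 85.8, 76.5, 67.5 and 70.6 CPM on day 2 (log2 change 0.89 ± 0.16, adjusted p = 0.009). Rhbdf1, an inactive rhomboid that controls the release of growth factors from the cell surface, was at 75.6, 59.6, 63.2 and 63.2 CPM in chow and 114, 96.96, 91.2 and 119 CPM on day 2 (log2 change 0.68 ± 0.09, adjusted p = 0.0012). None of 28 collagen genes was called, and their median was -0.05. Of 41 matrix crosslinking and remodelling genes, Loxl1 was called higher, a share of 2.44% that is near the 2.43% of all genes, and Thbs1 and Timp4 were called lower (4.88%, against 1.96%). Of 20 endothelial markers, Ramp2 was the called member, with a median of -0.07.

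Of 18 imprinted genes, 1 was called higher (5.56%, against 2.43% of all genes) and 2 lower (11.1%, against 1.96%). Mest, an imprinted gene known as a marker of fat pad expansion, was at 98.1, 76.1, 67.3 and 101 CPM in chow and 631, 300.2, 398 and 457 CPM on day 2, 5.19-fold higher on day 2 (log2 change 2.37 ± 0.38, adjusted p = 0.0058). Plagl1, an imprinted zinc finger factor, fell: it was at 219.8, 286, 138 and 228 CPM in chow and 124, 112, 126 and 132 CPM on day 2 (log2 change -0.82 ± 0.15, adjusted p = 0.011), with chow libraries spread widely and day 2 libraries close together. Zdbf2, the third called gene of that list, was low, at 1.22, 2.21, 1.67 and 2.12 CPM in chow and 0, 0.866, 0.834 and 0.234 CPM on day 2 (log2 change -1.47 ± 0.38, adjusted p = 0.039, without each doubted library 0.11 and 0.078). Lep, which encodes the satiety hormone leptin, was at 903, 547, 374 and 726 CPM in chow and 1589, 1002, 1019 and 2118 CPM on day 2 (log2 change 1.17 ± 0.32, adjusted p = 0.043, without each doubted library 0.097 and 0.11). Zfp423, a zinc finger protein of preadipocyte commitment, was at 37.7, 36.7, 46.4 and 33.7 CPM in chow and 64.7, 64.96, 51.1 and 54.7 CPM on day 2 (log2 change 0.60 ± 0.11, adjusted p = 0.012). Adipocyte identity markers had 3 of 18 genes called higher (16.7%, against 2.43% of all genes) and none lower, and adipogenic transcription factors 3 of 26 called higher (11.5%) and none lower. The identity markers had 9 positive and 9 negative changes, with a median of 0.04. The transcription factors had 12 positive and 14 negative changes, with a median of -0.04. Without chow replicate 4 the medians were -0.085 and -0.087. In each list 1 gene was called without chow replicate 4, and 1 without day 2 replicate 1. Adipoq (-0.37 ± 0.31, adjusted p = 0.47) and Pparg (0.42 ± 0.17, adjusted p = 0.14), the adiponectin gene and the master regulator of adipogenesis, were not called.

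Fgf1, a growth factor made in visceral fat, was lower in each day 2 library than in any chow library. It was at 137, 134, 139 and 127 CPM in chow and 66.9, 78.2, 83.9 and 67.5 CPM on day 2 (log2 change -0.85 ± 0.12, adjusted p = 0.002), with a chow range of 127 to 139 CPM, and was still called without both doubted libraries. Fgf9 was the other called member of 21 fibroblast growth factor genes (9.52% called lower, against 1.96% of all genes), at 3.14, 3.49, 2.94 and 1.74 CPM in chow and 0.5395, 0.917, 1.25 and 0.701 CPM on day 2 (log2 change -1.55 ± 0.34, adjusted p = 0.02, without each doubted library 0.029 and 0.054). Tns3, a focal adhesion protein, was at 66.8, 86.8, 77.6 and 87.9 CPM in chow and 38.3, 39.6, 48.5 and 42.2 CPM on day 2 (log2 change -0.91 ± 0.16, adjusted p = 0.0075). Arhgap20, a GTPase-activating protein, was at 18.2, 17.6, 17.9 and 19.1 CPM in chow and 8.63, 10.9, 10.1 and 7.599 CPM on day 2 (log2 change -0.94 ± 0.14, adjusted p = 0.0035). Ugt1a6a, a glucuronosyltransferase, was at 23.4, 33.6, 22.2 and 25.3 CPM in chow and 12.4, 10.6, 14.6 and 10.4 CPM on day 2 (log2 change -1.11 ± 0.17, adjusted p = 0.0046). The Ugt1a genes share exons, so its reads may be split between them and its value is uncertain.

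The other falls among the 38 were of low level. Slc23a4, a transporter gene, was at 2.73, 4.53, 2.43 and 2.84 CPM in chow and 0, 0.509, 0.72 and 0.585 CPM on day 2 (log2 change -2.43 ± 0.40, adjusted p = 0.0058). It was the second fall still called without both doubted libraries, with an adjusted p of 0.049999, just under the threshold. Cobl, an actin nucleator, was at 8.78, 12.7, 9.77 and 19.9 CPM in chow and 1.08, 3.31, 3.26 and 2.34 CPM on day 2 (log2 change -2.19 ± 0.36, adjusted p = 0.0058). Stk26, a kinase, was at 11.8, 14.9, 12.8 and 20.6 CPM in chow and 2.16, 4.08, 5.91 and 3.97 CPM on day 2 (log2 change -1.77 ± 0.29, adjusted p = 0.0058). Tfcp2l1, a transcription factor of ductal epithelia, was at 5.82, 6.04, 4.76 and 7.63 CPM in chow and 1.08, 1.99, 2.05 and 2.22 CPM on day 2 (log2 change -1.62 ± 0.29, adjusted p = 0.0087). Chow replicate 4, the library with duct genes, was the highest for all 3 of Cobl, Stk26 and Tfcp2l1. Without it their changes were -1.87, -1.57 and -1.47, with adjusted p-values of 0.027, 0.027 and 0.031.

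Further rises among the 38 had varied roles. Krt79, a keratin, was at 3.55, 5.58, 4.43 and 3.24 CPM in chow and 16.7, 15.8, 10.1 and 17.2 CPM on day 2 (log2 change 1.83 ± 0.23, adjusted p = 0.0012). Paqr9, a membrane protein of the progestin receptor family, was at 42.7, 16.04, 26.7 and 16.9 CPM in chow and 153, 68.6, 107 and 195 CPM on day 2 (log2 change 2.33 ± 0.39, adjusted p = 0.0058). Ltc4s, the enzyme that makes leukotriene C4, was at 45.2, 23.4, 27.4 and 25.7 CPM in chow and 76.6, 57.1, 59.9 and 70.3 CPM on day 2 (log2 change 1.10 ± 0.18, adjusted p = 0.0058). D430019H16Rik, which has a clone name, was at 55.95, 27.1, 34.8 and 45.4 CPM in chow and 136, 112, 91.97 and 132 CPM on day 2 (log2 change 1.51 ± 0.21, adjusted p = 0.0028). Rbm28, a nucleolar RNA-binding protein, was at 108, 78, 69.5 and 78.6 CPM in chow and 190.5, 137, 138 and 202 CPM on day 2 (log2 change 0.99 ± 0.16, adjusted p = 0.0058). Each of these genes had all day 2 libraries above the chow range.

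Signalling and regulatory genes also stood among the 38. Map2k3, the kinase that activates p38, was at 49.3, 51.1, 52.4 and 45.02 CPM in chow and 89.6, 66.9, 71.8 and 72.9 CPM on day 2 (log2 change 0.59 ± 0.10, adjusted p = 0.0058). Noct, the rhythmically expressed nocturnin gene, was at 25.1, 24.9, 19.2 and 23.8 CPM in chow and 45.9, 30.6, 49.6 and 50.9 CPM on day 2 (log2 change 0.93 ± 0.15, adjusted p = 0.0058), with day 2 replicate 2 nearest to chow. Tob1, which restrains cell proliferation, was at 72.1, 57.2, 63.4 and 58.6 CPM in chow and 128, 102, 95.7 and 91.9 CPM on day 2 (log2 change 0.72 ± 0.13, adjusted p = 0.0087). Bcl9l, a coactivator of beta-catenin, was at 135, 94.3, 116 and 125 CPM in chow and 181, 167, 182 and 170.2 CPM on day 2 (log2 change 0.57 ± 0.10, adjusted p = 0.0087). Slc6a13, a transporter of the amino acid GABA, was at 91.6, 83.7, 57.9 and 71.1 CPM in chow and 139.7, 146, 108 and 156 CPM on day 2 (log2 change 0.85 ± 0.14, adjusted p = 0.0058). The adhesion protein Pcdh7 (0.99 ± 0.16), the N-glycan branching enzyme Mgat4b (0.57 ± 0.09) and Tbl2 (0.64 ± 0.11) rose, and the tubulin kinase Ttbk2 fell (-0.69 ± 0.12). The 8 genes called without both doubted libraries were Trarg1, Trp53inp2, Alas1, Rhbdf1, Krt79, D430019H16Rik, Fgf1 and Slc23a4. Over the 38 genes the adjusted p without both doubted libraries ran from 0.0369 to 0.130, and 8 were under 0.05.

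The list with the most falls was the mesothelial one. Of 21 markers tested, all had a negative change, 18 (85.7%, against 1.96% of all genes called lower) were called lower, and the median was -1.33. Their summed level was 1139 to 1336 CPM in chow and 595 to 806 CPM on day 2. Lrrn4, a mesothelial membrane protein, was at 40.8, 66.3, 69.8 and 45.9 CPM in chow and 12.9, 15.9, 23.8 and 10.5 CPM on day 2 (log2 change -1.75 ± 0.33, adjusted p = 0.012, without each doubted library 0.028 and 0.046). Upk3b, a uroplakin of mesothelium, was at 139, 164, 167 and 108 CPM in chow and 41.5, 52.2, 62.6 and 36.01 CPM on day 2 (log2 change -1.56 ± 0.30, adjusted p = 0.014, without each doubted library 0.028 and 0.0502). Nkain4 was at 14.2, 19.3, 15.3 and 13.9 CPM in chow and 4.86, 6.37, 6.82 and 4.09 CPM on day 2 (log2 change -1.44 ± 0.26, adjusted p = 0.0087, without each doubted library 0.027 and 0.036). For these 3 the groups did not overlap and chow replicate 4 was not the highest library.

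Chow replicate 4 bore on other members of that list. The keratins Krt8 and Krt18 are also duct markers, and Krt8 was at 9.83, 14.3, 7.92 and 81.6 CPM in chow and 8.63, 4.94, 3.68 and 3.39 CPM on day 2, Krt18 at 5.06, 6.63, 4.78 and 36.4 CPM in chow and 3.24, 1.83, 1.93 and 2.57 CPM on day 2. Without chow replicate 4 their changes were -1.20 and -1.31, and neither was called (adjusted p = 0.14 and 0.18). The list's median without that library was -1.20, and -1.36 without both doubted libraries. With chow replicate 2 or 4 left out, 6 or 7 members were called. With day 2 replicate 1, 3 or 4 left out, 4, 11 or 0 were called, and none was called without both doubted libraries.

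**Figure D4:**
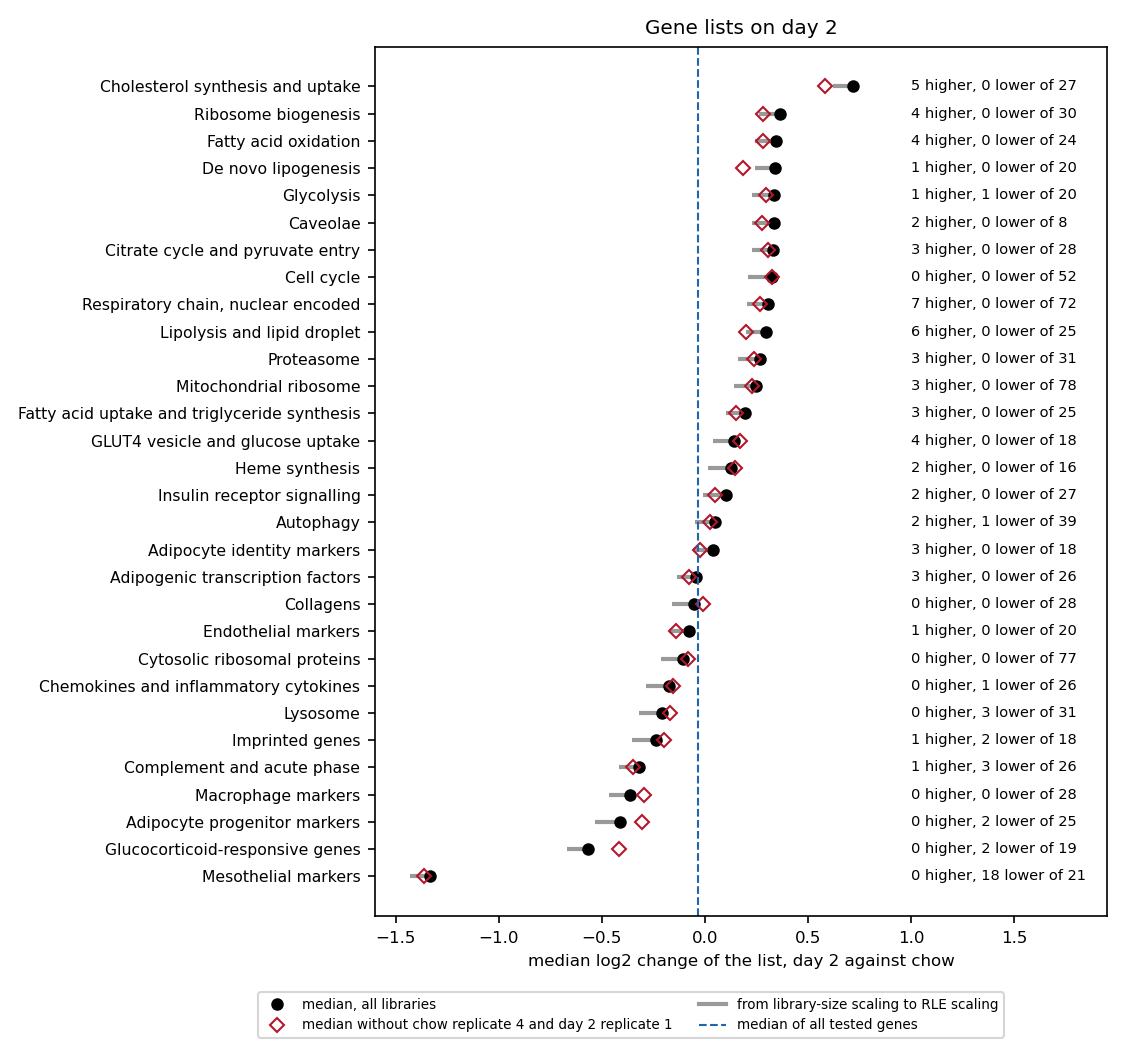
Median log2 change on day 2 of 30 of the 66 gene lists (black), the same without chow replicate 4 and day 2 replicate 1 (red diamonds), and the span between library-size and relative log expression (RLE) scaling (grey), with the numbers of called members at the right and the median of all tested genes as a dashed line. Of the lists drawn, which leave out the duct and ciliated cell markers (medians -2.78 and -2.84), mesothelial markers are lowest at -1.33 and cholesterol genes highest at 0.72.

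Duct epithelium genes were all lower on day 2 than in chow, 14 of 14 with a median of -2.78, and 5 were called lower (35.7%, against 1.96% of all genes). Without chow replicate 4 the median was -0.19 and none was called. Lrp2, an endocytic receptor of absorptive epithelia, was at 8.03, 15.6, 14.9 and 194 CPM in chow and 4.32, 4.64, 3.45 and 4.44 CPM on day 2; without chow replicate 4 its change was -1.62 (adjusted p = 0.12) in place of -3.82. Atp6v0a4, a proton pump subunit of duct cells, was at 2.501, 7.904, 2.58 and 18.01 CPM in chow and 0.5395, 0.459, 0.303 and 0.351 CPM on day 2 and had the largest fall of the named genes (log2 change -4.33 ± 0.87, adjusted p = 0.014, without each doubted library 0.054 and 0.049), and without that library its change was -3.43 (adjusted p = 0.054). Of the 299 called falls, 129 were highest in chow replicate 4, and in 34 this library had over 2-fold the level of the next. Over all 15254 genes tested, 496 had such a gap. All 299 falls kept a negative change without chow replicate 4. Of the 371 called rises, 180 were lowest in this library among the 8. The shares of all genes highest or lowest in it were not counted. Without it the median of lipolysis genes was 0.19 in place of 0.30. That of fatty acid oxidation genes was 0.26 in place of 0.34, and that of GLUT4 genes 0.15 in place of 0.14.

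The 2 called members of the progenitor list and the 3 of the Wnt list were falls. Of 25 adipocyte progenitor markers, 20 had a negative change, the median was -0.41 and 2 were called lower (8%, against 1.96% of all genes). Their summed level was 12556 to 16911 CPM in chow and 8431 to 16439 CPM on day 2, so the groups overlapped. Dpp4, a peptidase of early progenitors, was at 40.5, 61.6, 48.9 and 66.7 CPM in chow and 17.8, 20.5, 19.7 and 18.9 CPM on day 2 (log2 change -1.48 ± 0.30, adjusted p = 0.014, without each doubted library 0.055 and 0.0502). Fmo2, a monooxygenase, was at 106, 158, 102 and 143 CPM in chow and 52.3, 76.6, 58.4 and 46.2 CPM on day 2 (log2 change -1.10 ± 0.29, adjusted p = 0.041, without each doubted library 0.11 and 0.11). In Wnt signalling 3 of 31 genes were called lower (9.68%, against 1.96% of all genes), Wnt2b, the secreted agonist Rspo1 and the secreted Dkk3. Wnt2b was at 24.7, 37.2, 35.5 and 23.5 CPM in chow and 6.47, 8.203, 12.9 and 6.55 CPM on day 2 (log2 change -1.74 ± 0.34, adjusted p = 0.014, without each doubted library 0.031 and 0.0502). Rspo1, also listed with mesothelium, was at 32.5, 43.01, 33.9 and 57.8 CPM in chow and 16.7, 16.6, 19.9 and 15.2 CPM on day 2 (log2 change -1.28 ± 0.25, adjusted p = 0.014, without each doubted library 0.054 and 0.049). Dkk3 was at 8.61, 8.14, 8.504 and 18.5 CPM in chow and 3.24, 5.66, 4.85 and 3.74 CPM on day 2 (log2 change -1.26 ± 0.33, adjusted p = 0.041, without each doubted library 0.16 and 0.11), and without chow replicate 4 its change was -0.87 (adjusted p = 0.16). The Wnt list's median of -0.23 was -0.13 without that library.

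Thbs1, a matrix protein that activates transforming growth factor-beta, fell by 3.25 on the log2 scale. It was at 107, 740.1, 82.6 and 260.1 CPM in chow and 26.4, 45.1, 23.3 and 28.1 CPM on day 2: chow replicates differed up to several-fold and every day 2 library was below the lowest of them (log2 change -3.25 ± 0.81, adjusted p = 0.033, without each doubted library 0.079 and 0.096). Retinoid genes held 3 called falls among 19 (15.8%, against 1.96% of all genes): Aldh1a1 (log2 change -0.56 ± 0.15, adjusted p = 0.045, without each doubted library 0.15 and 0.13) and Aldh1a2 (log2 change -0.77 ± 0.21, adjusted p = 0.043, without each doubted library 0.082 and 0.092), which make retinoic acid, and Dhrs9 (log2 change -1.44 ± 0.35, adjusted p = 0.028, without each doubted library 0.055 and 0.053). Cybrd1, an iron reductase, was at 5.12, 8.95, 11.9 and 8.51 CPM in chow and 1.62, 1.12, 1.52 and 1.87 CPM on day 2 (log2 change -2.54 ± 0.51, adjusted p = 0.014, without each doubted library 0.042 and 0.0502). Tkt, the transketolase of the pentose phosphate pathway, was at 1838, 1274, 1085 and 1210.1 CPM in chow and 674, 494, 828 and 687 CPM on day 2 (log2 change -1.01 ± 0.22, adjusted p = 0.02, without each doubted library 0.048 and 0.061). Glul, glutamine synthetase, was at 757, 1524, 1247 and 1627 CPM in chow and 637, 944, 769 and 445 CPM on day 2 (log2 change -0.88 ± 0.21, adjusted p = 0.03, without each doubted library 0.1 and 0.093).

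Immune genes had few calls. Of 28 macrophage markers, 27 had a negative change with a median of -0.36 and none was called. Their summed level was 2112 to 2527 CPM in chow and 1361 to 2058 CPM on day 2, which did not overlap. The list's mean log2 level relative to chow was -0.77, -0.17, -0.28 and -0.41 in day 2 replicates 1 to 4, lowest in the doubted replicate 1. Without both doubted libraries the median was -0.30. Adgre1, a macrophage surface receptor, was at 49.9, 51.1, 52.4 and 42.8 CPM in chow and 28.1, 41.3, 38.95 and 38.2 CPM on day 2 (log2 change -0.39 ± 0.20, adjusted p = 0.22). Among 26 complement and acute phase genes, C3 (log2 change -1.01 ± 0.27, adjusted p = 0.043, without each doubted library 0.078 and 0.13), C4b (log2 change -1.10 ± 0.31, adjusted p = 0.049, without each doubted library 0.12 and 0.14) and C1s1 (log2 change -0.80 ± 0.19, adjusted p = 0.028, without each doubted library 0.067 and 0.087), components of the complement cascade, were called lower (11.5%, against 1.96% of all genes), and the list's median was -0.32. C3 was at 1719.8, 2258, 2410.0 and 1577 CPM in chow and 749, 1048, 1413 and 743 CPM on day 2. Serpina1d, a protease inhibitor, was called higher at 0.872, 0.349, 0.582 and 0.499 CPM in chow and 6.47, 1.99, 1.29 and 5.49 CPM on day 2 (log2 change 2.50 ± 0.54, adjusted p = 0.02, without each doubted library 0.078 and 0.054), but its family members are nearly identical and the value is uncertain. Of 26 chemokine and cytokine genes, Il33 was called lower (log2 change -0.98 ± 0.28, adjusted p = 0.049, without each doubted library 0.13 and 0.086), while Ccl2 (0.13 ± 0.72, adjusted p = 0.95) and Tnf (0.74 ± 0.43, adjusted p = 0.29) were not called. The share called lower in that list was 3.85%, near the 1.96% of all genes.

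Stress, hormone and clock genes changed in single members. Of 19 glucocorticoid-responsive genes, 16 were negative with a median of -0.57, and Sult1a1, a sulfotransferase, at 163, 315, 126 and 189.7 CPM in chow and 60.97, 99.1, 92.7 and 41.03 CPM on day 2 (log2 change -1.41 ± 0.29, adjusted p = 0.017, without each doubted library 0.0499 and 0.058), and Nfkbia, the inhibitor of NF-kappaB (log2 change -0.71 ± 0.19, adjusted p = 0.041, without each doubted library 0.1 and 0.1), were called lower (10.5%, against 1.96% of all genes). Of 23 clock genes, 2 were called, both lower (8.7%, against 1.96% of all genes), with a median of -0.02. Npas2, a paralog of Clock, was one of them (log2 change -1.45 ± 0.37, adjusted p = 0.037, without each doubted library 0.11 and 0.076), and Dbp and Nr1d1 were not called (0.16 ± 0.58, adjusted p = 0.92, and -0.12 ± 0.27, adjusted p = 0.83). The labels used here do not give the hour of sampling. None of 27 immediate early genes was called, with a median of -0.26. Of 30 ribosome biogenesis genes, 25 were positive and 4 called higher (Bop1, Tsr1, Ppan and Nolc1, 13.3%, against 2.43% of all genes), while of 77 cytosolic ribosomal protein genes 67 were negative, with a median of -0.11 and no call. All 31 proteasome genes were positive (median 0.27), 3 of them called higher (9.68%, against 2.43% of all genes). No ribosome biogenesis gene was called without chow replicate 2, 3 or 4 or day 2 replicate 1 or 4. No proteasome gene was called without chow replicate 2, 3 or 4 or day 2 replicate 1, 3 or 4. With chow replicate 1 or day 2 replicate 2 left out, 9 or 14 ribosome biogenesis genes and 10 or 16 proteasome genes were called.

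Single members of other stress lists were called. Of 20 heat shock genes, 3 were called higher (15%, against 2.43% of all genes), the small heat shock proteins Hspb6 (log2 change 0.53 ± 0.13, adjusted p = 0.03, without each doubted library 0.09 and 0.079) and Hspb8 (log2 change 0.62 ± 0.17, adjusted p = 0.047, without each doubted library 0.15 and 0.11) and the cochaperone Bag3 (log2 change 0.29 ± 0.08, adjusted p = 0.042, without each doubted library 0.15 and 0.054). Atf4, the transcription factor of the amino acid response, was at 107, 84.5, 85.2 and 89.9 CPM in chow and 147, 114, 118 and 183 CPM on day 2 (log2 change 0.61 ± 0.14, adjusted p = 0.027, without each doubted library 0.082 and 0.076). Hif1a, the oxygen-regulated transcription factor, was at 99.7, 64.98, 76.99 and 77.2 CPM in chow and 186, 91.5, 139 and 247 CPM on day 2 (log2 change 1.05 ± 0.24, adjusted p = 0.025, without each doubted library 0.082 and 0.074), with day 2 replicate 2 below chow replicate 1. Sod2, the mitochondrial superoxide dismutase, was called higher (log2 change 0.57 ± 0.16, adjusted p = 0.044, without each doubted library 0.12 and 0.13) and Gstm1, a glutathione transferase, lower (log2 change -0.70 ± 0.19, adjusted p = 0.045, without each doubted library 0.14 and 0.13). The medians of these lists were 0.15 for heat shock, 0.18 for the amino acid response, -0.01 for hypoxia and 0.03 for antioxidant genes, the last of which was -0.08 with library-size scaling.

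Among the largest called rises with a mean of at least 1 CPM were genes of low level. Bpifb6 was at 0.6398, 0.465, 0.228 and 0.467 CPM in chow and 5.93, 1.63, 3.94 and 6.78 CPM on day 2 (log2 change 3.30 ± 0.79, adjusted p = 0.028, without each doubted library 0.095 and 0.07), the largest rise by this rule. Pla2g2e, a secreted phospholipase, was at 5.002, 1.98, 3.14 and 1.81 CPM in chow and 16.2, 6.32, 12.4 and 19.6 CPM on day 2 (log2 change 2.12 ± 0.51, adjusted p = 0.03, without each doubted library 0.1 and 0.072). Bcl2l10, a member of the Bcl-2 family, was at 2.09, 1.05, 1.09 and 1.15 CPM in chow and 3.24, 2.497, 3.68 and 8.18 CPM on day 2 (log2 change 1.72 ± 0.37, adjusted p = 0.02, without each doubted library 0.07 and 0.05). Efcab8 was at 7.97, 4.65, 11.5 and 3.65 CPM in chow and 20.5, 27.8, 31.6 and 20.1 CPM on day 2 (log2 change 1.85 ± 0.42, adjusted p = 0.024, without each doubted library 0.083 and 0.054). None of these 4 genes was called in every fit without 1 library. The abundant Tuba1a, an alpha-tubulin whose near-identical copies could share reads, was at 1041, 268, 260.1 and 421 CPM in chow and 3238, 792, 1437 and 3477 CPM on day 2 (log2 change 2.17 ± 0.54, adjusted p = 0.033, without each doubted library 0.1 and 0.1), and chow replicate 1 was above day 2 replicate 2.

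Most calls of named genes outside the 38 were lost without certain single libraries. Of the 108 named genes that were called and lie outside the 38, 106, 12, 56 and 9 were still called when chow replicates 1, 2, 3 and 4 were left out in turn. For day 2 replicates 1 to 4 the numbers were 6, 102, 38 and 2. No named called gene changed sign.

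Day 2 was then set against the later days directly. Between day 4 and day 2 the smallest adjusted p of any gene was 0.041, so every call lay close to the threshold of 0.05. In this comparison 366 genes (2.4%) differed, 327 of them (2.14%) higher on day 4. Cell cycle genes made up part of these: none of 52 was called on day 2 against chow, where their median was 0.33 and 40 were positive, and 44 of 52 were called higher on day 4 than on day 2, with a median difference of 2.51. Mki67, a marker of dividing cells, was at 10.3, 4.65, 15.9 and 8.32 CPM in chow and 20.5, 9.63, 20.4 and 15.1 CPM on day 2 (log2 change 0.64 ± 0.67, adjusted p = 0.59). The 366 fell to 0 without any of day 2 replicates 1, 2 and 3 or day 4 replicates 2, 3 and 4, and rose to 589 without day 2 replicate 4 and 2251 without day 4 replicate 1. Only Gprc5a and Tnfrsf11b were called in both comparisons, which share the day 2 libraries and are not independent. Gprc5a, a membrane receptor, was at 4.59, 5.35, 3.77 and 3.74 CPM in chow and 0.5395, 1.94, 1.402 and 2.22 CPM on day 2 and at 2.16, 3.57, 5.104 and 4.12 CPM on day 4, and differed between day 4 and day 2 by 1.11 ± 0.28 (adjusted p = 0.046). Tnfrsf11b, the decoy receptor osteoprotegerin, was at 8.32, 17.9, 8.96 and 7.54 CPM in chow and 0.5395, 1.63, 3.22 and 1.87 CPM on day 2 and at 3.05, 21.2, 20.4 and 10.3 CPM on day 4, a difference of 2.59 ± 0.65 (adjusted p = 0.045).

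Between day 14 and day 2 no gene was called (0% of those tested) with edgeR, where 1847 genes had an unadjusted p under 0.05. DESeq2 called 134, limma-voom 1152, and edgeR fitted on these groups alone 1. None of the 38 genes was called between day 4 and day 2 (adjusted p 0.0770 to 0.992) or between day 14 and day 2 (adjusted p 0.127 to 0.999). Among the 38, the smallest adjusted p between day 4 and day 2 was that of Trp53inp2, whose change against chow was 1.38 on day 2 and 2.05 on day 4.

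The 38 genes are shown over all high-fat days in the heat map, where each day is compared with the same 4 chow libraries, so the columns share their controls and are not independent. The genes were also chosen by their calls on day 2, which favours large changes on that day. A smaller change on later days cannot be told apart from an effect of this choice. In the order of days 2, 4, 6 and 14, the median change of the 28 rises was 0.91, 0.92, 0.75 and 0.73, and that of the 10 falls was -1.02, -0.90, -0.56 and -0.56. Of all genes, 35.3% were called against chow on day 4, 3.45% on day 6 and 1.18% on day 14. Fgf1 had changes of -0.85, -0.61, -0.36 and -0.26 on days 2, 4, 6 and 14, and Trarg1 of 1.05, 0.98, 0.81 and 1.02. Fgf1 had the smallest adjusted p of the 38 between day 14 and day 2, 0.127, with a difference of 0.59.

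**Figure D5:**
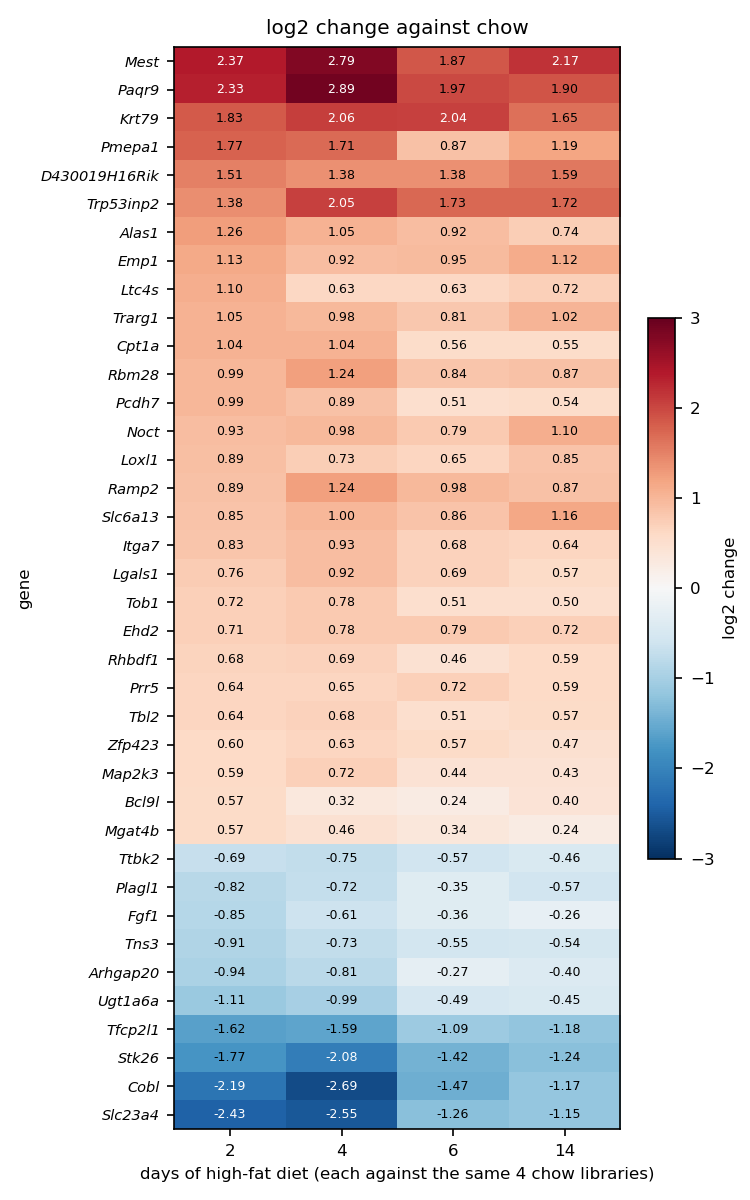
Log2 change against chow of the 38 genes (rows) after 2, 4, 6 and 14 days of the diet (columns), each column using the same 4 chow libraries, with red higher and blue lower. The genes were chosen by their day 2 calls. The 28 genes above zero on day 2 and the 10 below it keep their sign on each later day, for example Mest at 2.37, 2.79, 1.87 and 2.17.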

How the data were processed

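RNA of epididymal fat was sequenced in 20 libraries, 4 in each of 5 groups. Per the labels, the RNeasy Mini Kit gave the RNA and the TruSeq RNA kit the libraries. Named in the submitters' processing notes are featureCounts, STAR, CASAVA, R 3.0 and limma. Genome build, annotation and strand setting are not given in the sources used here, so overlapping or antisense genes cannot be told apart. The authors deposited raw counts per gene for 39179 Ensembl IDs, of which 37607 were matched to a symbol in a table of names. IDs without a symbol held 0.139% of counts.

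From these counts, genes were filtered with filterByExpr of edgeR 4.0.16 in R 4.3.3 (minimum count 10, minimum total 15, by group), which left 15254 genes with at least 99.5% of each library's counts. Totals were scaled with TMM factors, and levels are CPM on those totals. Library totals of 1916829 to 38832429 counts set the precision. The quasi-likelihood F test was fitted on all 20 libraries with group as the only term (15 residual degrees of freedom), so the day 4, 6 and 14 libraries add to the estimate of spread. The Benjamini-Hochberg adjustment ran over all genes within a comparison, with a threshold of 0.05. Standard errors were derived from the F statistic.

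Alternatives were other scalings (RLE, library size), other filters, stricter thresholds, DESeq2 1.42.0, limma-voom 3.58.1 with sample weights, a fit of the compared groups alone, a replicate block, the library number as a covariate, and each library or a doubted pair left out.

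The members and the 66 gene lists were chosen with earlier results of these data known. Lists are described by counts and medians, with no test. Named genes followed a rule. It took the genes called in every fit without 1 library (up to 40), the 10 largest called changes in each direction (no overlap between groups, mean level of 1 CPM or more, no clone names), and up to 4 called members of each list (or the 2 most abundant where none was called). It added a panel of 28 genes, called genes that also differed between later days and day 2, and the 5 most abundant called genes in each direction. Sc5d was added after its value was seen. A few genes that the rule took are not reported here.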

Additional observations from a re-analysis of the deposited data

Results flagged for a closer look

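Among 400 groups of 4 libraries checked, 1 group for chow and 1 for day 2 in each of 200 named genes, 25 had a library whose gap to the nearest other library exceeded Dixon's 95% limit for 4 values. Chance gives about 1 in 20. Chow replicate 4 was the library in 8 of them. It was high for Lrp2 (194 CPM), Krt8 (81.6 CPM), Krt18 (36.4 CPM), Dkk3 (18.5 CPM), Nme5 (9.10 CPM), Aldoc (6.89 CPM) and Lrrc18 (4.83 CPM), and low for Map1lc3a (96.8 CPM).

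Chow replicate 1 was high for Mpc2 (165 CPM), Sod2 (162 CPM), Mrpl20 (74.4 CPM) and Bcl2l10 (2.09 CPM). Chow replicate 2 was high for Pdk4 (125 CPM) and Tnfrsf11b (17.9 CPM). Day 2 replicate 2 was low for Fasn (2332 CPM) and Mpc2 (154 CPM), and high for C4b (759 CPM), Angptl4 (476 CPM), Gaa (119 CPM) and Zfp36 (85.5 CPM). Day 2 replicate 3 was high for Col3a1 (1817 CPM), Col1a1 (335 CPM) and Ppargc1a (23.8 CPM). Day 2 replicate 4 was low for Loxl1 (111 CPM) and high for Ppan (26.9 CPM).

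Gprc5a and Tnfrsf11b differed between day 4 and day 2 in the direction opposite to their change from chow to day 2, by 1.11 and 2.59 on the log2 scale (edgeR quasi-likelihood, adjusted p = 0.046 and 0.045). Both comparisons use the same day 2 libraries, so low values there push the 2 differences in opposite directions.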

How the results depend on the processing

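The 670 genes that differed between day 2 and chow became 317 with no filter on low counts (172 higher), 1412 with DESeq2, 1230 with limma-voom, 167 with only the compared groups in the fit (64 higher), 296 with the library number as a covariate and 8 without both doubted libraries. At an adjusted p under 0.01, 39 were called, and 233 with an absolute log2 change above 1. Leaving out 1 library gave 43 to 1779. The 366 genes between day 4 and day 2 became 0 with library-size scaling, 913 with DESeq2, 3382 with limma-voom and 0 with only the compared groups, and 0 to 2251 without 1 library. The 0 genes between day 14 and day 2 became 134, 1152 and 1 with DESeq2, limma-voom and only the compared groups, and 0 to 20 without 1 library. The causes were not tested. Deviations of equally numbered chow and day 2 libraries correlated by 0.096, 0.065, 0.294 and 0.017, and those of differently numbered ones by -0.361 to 0.258. These few values cannot decide whether equal replicate numbers pair the libraries. A fit with the replicate block called 905 genes on day 2, 551 between day 4 and day 2 and 32 between day 14 and day 2. No named called gene reversed; 8 of 146 kept the call without both doubted libraries, and 146 with RLE scaling. Genes of a few CPM are limited by day 2 replicate 1, where some had no count in 1916829.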
